A study of Mus musculus with 6 samples.

Results

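Prefoldin is a cytosolic chaperone complex, and its 6 subunit genes were compared in whole brain between mice given LPS and controls given vehicle. The complex was chosen by the log2 difference of Pfdn4 in this same comparison, and the question was whether the other subunits shared it. Its members were taken by name as the transcript clusters that the platform annotation assigns to Pfdn1, Pfdn2, Pfdn4, Pfdn5 and Vbp1, which gave 5 clusters for 5 genes among 35556 clusters and 19938 genes named alone. A transcript cluster is a probe set designed against a single transcribed locus. The remaining subunit gene, Pfdn6, also had 1 cluster and was taken from a list of the whole complex. No cluster named a subunit together with another gene, so that each subunit rests on a single set of probes.

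The mice were male C57BL6 animals, 7 to 8 weeks old when purchased, given a single i.p. injection of 4 mg/kg LPS from Escherichia coli serotype 055:B5 or of PBS as vehicle. Whole brains were taken 48 hours after injection from 3 mice per group and hybridized singly, on Affymetrix Mouse Gene 1.0 ST chips. Mice were perfused with PBS before the brains were harvested. Values are the deposited log2 expression values, so that a difference of -1 would be a halving.

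Prefoldin is a jellyfish-shaped hexamer with a base built from a pair of alpha-type subunits, encoded by Vbp1 and Pfdn5, and from beta-type subunits, encoded by Pfdn1, Pfdn2, Pfdn4 and Pfdn6. Its coiled-coil arms hold unfolded actin and tubulin as they leave the ribosome and pass them to the chaperonin CCT, also called TRiC, a double ring in which these proteins fold. Tubulin then needs a further set of cofactors to form its alpha-beta dimer. Neurons make large amounts of tubulin and actin for axons, dendrites and synapses.

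In GRCm38.p6 the annotated gene of Pfdn4 runs from 170496428 to 170519070 on chromosome 2, and 718 of its bases overlap the annotated gene Cyp24a1 and 12571 the lncRNA gene Gm16796, neither of which was analysed here. Each of the 6 subunit genes lies on a chromosome of its own. Promoter windows are printed for the subunit by which the complex was chosen, for the alpha-type subunit with separated groups and for the alpha-type subunit with a difference of the opposite sign. Each runs 5′ to 3′ on the plus strand, from 250 bases before to 50 bases after the annotated start, in RefSeq sequence of GRCm38.p6. Capitals mark matches to the GC box GGGCGG or the CCAAT box CCAAT. The windows are chr2:170496178-170496477 for Pfdn4, chr15:102325866-102326165 for Pfdn5 and chrX:75514047-75514346 for Vbp1.
Pfdn4: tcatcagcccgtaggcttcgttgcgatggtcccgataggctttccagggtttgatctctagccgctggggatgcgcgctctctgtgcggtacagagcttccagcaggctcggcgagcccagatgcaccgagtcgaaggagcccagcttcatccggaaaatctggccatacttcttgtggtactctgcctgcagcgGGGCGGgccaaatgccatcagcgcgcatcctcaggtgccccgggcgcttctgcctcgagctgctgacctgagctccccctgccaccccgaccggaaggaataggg
Pfdn5: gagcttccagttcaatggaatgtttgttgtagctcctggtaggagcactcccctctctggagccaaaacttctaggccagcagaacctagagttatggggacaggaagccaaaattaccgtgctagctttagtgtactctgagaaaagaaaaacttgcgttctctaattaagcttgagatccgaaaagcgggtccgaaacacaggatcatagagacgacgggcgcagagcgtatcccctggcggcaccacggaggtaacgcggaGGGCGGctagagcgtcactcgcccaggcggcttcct
Vbp1: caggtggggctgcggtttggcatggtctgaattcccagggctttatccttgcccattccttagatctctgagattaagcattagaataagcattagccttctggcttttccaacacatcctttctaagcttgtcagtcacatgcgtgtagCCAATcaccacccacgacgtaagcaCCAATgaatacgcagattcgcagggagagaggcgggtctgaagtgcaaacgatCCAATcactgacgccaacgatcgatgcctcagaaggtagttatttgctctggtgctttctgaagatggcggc

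The window of Pfdn4 held 1 GC box, starting at -55 from the annotated start, and that of Pfdn5 held 1 GC box, starting at 15. All of the Pfdn4 window also lies within the annotated gene Cyp24a1, which runs from 170482957 to 170497145. The window of Vbp1 held 3 CCAAT boxes, starting at -100, -75 and -22, and no GC box. Both strands were searched, and of 32851 promoter windows of this length 35.7% held a GC box and 37.4% a CCAAT box. The heat shock element GAANNTTC (N being any base) and the interferon-stimulated response element, held by 7.86% and 3.44% of all windows, had no match in the windows of the 5 prefoldin genes with an entry, which were Pfdn2, Pfdn4, Pfdn5, Pfdn6 and Vbp1. A match or its lack is a description of these letters alone.

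The 6 arrays had medians from 6.95 to 7.11 over all clusters, and a first principal component with 54.5% of the variance set LPS replicates 1 and 2 against the remaining 4. The subunits are given with and without these arrays. Markers of neurons, astrocytes and endothelial cells (5 of 5 in each list) and of oligodendrocytes (4 of 4) were above the 95th percentile of olfactory and vomeronasal receptor genes on every array, as were 4 of 5 microglial markers, while 0 of 3 erythrocyte markers were. The prefoldin genes were also above that percentile on all 6 arrays. Among the marker lists 3 of 5 endothelial genes were called higher after LPS, where 0.652% of all clusters were. These were Cldn5, Pecam1 and Cdh5 (adjusted p = 0.00456, 0.0207 and 0.00492 from limma), and no other marker passed the test. Of the endothelial markers not called, Flt1 had a log2 difference of 0.59 and Slc2a1 of -0.07. Leaving out PBS replicate 1 or 2 or LPS replicate 1 or 2 ended the call of Pecam1 (adjusted p from 0.0660 to 0.115 from limma), as did median centring (0.0534). With the replicate number as a block the calls of Cldn5 and Cdh5 ended (adjusted p = 0.0517 and 0.0603 from limma), without LPS replicates 1 and 2 that of Cdh5 did (0.0766), and the methods' t-test called none of the 3. In whole brain, fewer cells of a type and less RNA per cell cannot be told apart.

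Pfdn4, a beta-type subunit, was lower in all LPS-treated mice. Its log2 expression was 8.54, 8.67 and 8.48 in the PBS mice and 8.01, 7.78 and 7.98 in the LPS mice. The highest LPS value lay below the lowest PBS value, and LPS replicate 2 was the lowest. The mean went from 8.56 ± 0.10 in controls (SD, n = 3) to 7.92 ± 0.13 with LPS (SD, n = 3), a log2 difference of -0.64 with a 95% confidence interval from -0.87 to -0.41, or a fold of 0.641. This difference led to the choice of the complex and is given as a description, with no test.

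**Figure D1:**
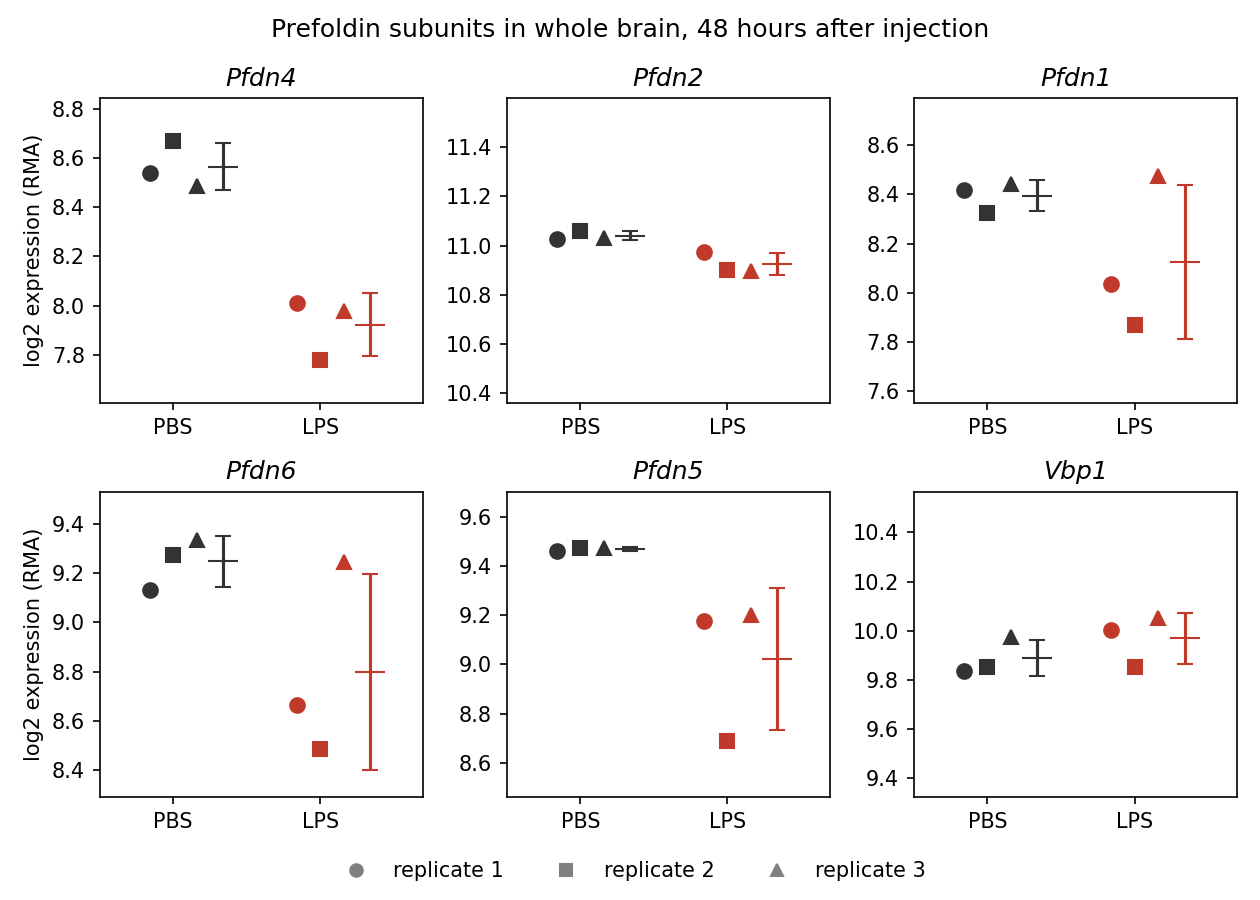
Log2 expression (RMA) of the 6 prefoldin subunit genes in each mouse, with panels of equal height on the log2 scale. Symbols are single mice, dark for PBS and red for LPS, and bars are the mean and SD of 3 mice. Pfdn4, Pfdn5 and Pfdn2 have all LPS mice below all PBS mice, Pfdn1 and Pfdn6 are low in LPS replicates 1 and 2 but not in LPS replicate 3, and Vbp1 overlaps.

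None of the other 5 subunits was called lower or higher at an adjusted p under 0.05 from limma, where 0.0619% of all clusters were called lower, 0.652% higher and 0.714% either way, and the methods' t-test, adjusted likewise, called none. At an unadjusted p under 0.05, limma gave 1 of the 5 as lower, Pfdn5, where 6.58% of all clusters were lower. The methods' t-test also gave 1 as lower at that level, Pfdn2, against 5.95% of clusters. All LPS mice lay below all PBS mice for 2 of the 5, Pfdn5 and Pfdn2, as they did for 10.3% of all clusters. For none of the 5 did all LPS mice lie above all PBS mice, against 9.73% of clusters. The 5 genes thus gave no call, which with 3 mice per group does not show that they were unchanged. A log2 difference as low or lower was held by 1.59% of all clusters for Pfdn6 and 1.62% for Pfdn5. For Pfdn1, Pfdn2 and Vbp1 these shares were 6.93%, 23.9% and 67.9%. The values of the 5 genes differed in size and in which mice were low, and Vbp1 alone had a difference above 0.

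Pfdn5 encodes an alpha-type subunit that was also described as MM-1, a protein that binds the transcription factor c-Myc. Its log2 expression was 9.46, 9.47 and 9.47 in the PBS mice and 9.18, 8.69 and 9.20 in the LPS mice. The PBS mice were nearly alike, all LPS mice lay below them, and LPS replicate 2 was the lowest by far. The log2 difference was -0.45 (95% confidence interval -0.79 to -0.11, unadjusted p = 0.0174 and adjusted p = 0.268 from limma). Without LPS replicate 2 it was -0.28, and for LPS replicate 3 alone it was -0.27.

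Pfdn2, a beta-type subunit, had a log2 expression of 11.03, 11.06 and 11.03 in the PBS mice and of 10.97, 10.90 and 10.90 in the LPS mice. The groups did not overlap, but they were separated by a small step. The log2 difference was -0.11 (95% confidence interval -0.28 to 0.05, adjusted p = 0.484 from limma). Leaving out any single array gave differences from -0.14 to -0.10. The annotated gene of Pfdn2 overlaps Nit1 by 703 bases at one end and Klhdc9 by 806 bases at the other.

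Pfdn1, a beta-type subunit, had a log2 expression of 8.42, 8.33 and 8.44 in the PBS mice and of 8.04, 7.87 and 8.47 in the LPS mice. LPS replicates 1 and 2 lay below every PBS mouse and LPS replicate 3 above every PBS mouse. The log2 difference was -0.27 (95% confidence interval -0.64 to 0.10, adjusted p = 0.462 from limma). Without LPS replicate 3 it was -0.44 and passed the test (adjusted p = 0.0326 from limma). When both LPS replicates 1 and 2 were omitted, the sign turned, to 0.08 (adjusted p = 0.845 from limma, with the remaining LPS array assumed to vary like the PBS arrays).

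Pfdn6, a beta-type subunit encoded within the major histocompatibility complex region, had its low values in the same LPS mice. Its log2 expression was 9.13, 9.27 and 9.34 in the PBS mice and 8.66, 8.49 and 9.24 in the LPS mice. LPS replicates 1 and 2 lay below every PBS mouse, and LPS replicate 3 lay within the PBS range. The log2 difference was -0.45 (95% confidence interval -0.91 to 0.01, adjusted p = 0.357 from limma). It was -0.67 without LPS replicate 3 (adjusted p = 0.0149 from limma) and -0.003 without LPS replicates 1 and 2 (adjusted p = 0.996 from limma).

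Vbp1 encodes the alpha-type subunit that was named for its binding to the von Hippel-Lindau protein. Its log2 expression was 9.84, 9.85 and 9.97 in the PBS mice and 10.002, 9.85 and 10.05 in the LPS mice. The groups overlapped, with a log2 difference of 0.08 (95% confidence interval -0.13 to 0.29, adjusted p = 0.702 from limma). The sign of the difference depended on the scaling, since it was -0.01 with each array centred on its median.

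With LPS replicate 3 left out, 2 of the 5 other subunits, Pfdn1 and Pfdn6, were called lower, in a comparison in which 3.24% of all clusters were called lower. The mean of LPS replicates 1 and 2 minus LPS replicate 3 was -0.52 for Pfdn1 and -0.67 for Pfdn6 on the log2 scale, and 2.08% and 0.723% of all clusters had values as low or lower. It was -0.27 for Pfdn5, -0.13 for Vbp1, -0.09 for Pfdn4 and 0.04 for Pfdn2, against a median of 0.01 over all clusters. For Pfdn4, LPS replicate 3 alone lay at -0.58 from the PBS mean, and the mean of LPS replicates 1 and 2 at -0.67. Both values went into the difference by which the complex was chosen. Markers of the choroid plexus differed along the same lines in their mean log2 expression over 5 genes. It was 8.41, 8.23 and 8.87 in LPS replicates 1, 2 and 3 and from 8.58 to 8.73 in the PBS mice. Aqp1, 1 of the 5, did not follow, with LPS replicates 1 and 2 minus LPS replicate 3 at 0.04. The median of this difference was -0.68 over the 5 genes, -0.29 over the microglial markers and -0.04 over all named genes. None of the 5 choroid plexus markers passed the test. Their part in the values of Pfdn1 and Pfdn6 was not tested.

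**Figure D2:**
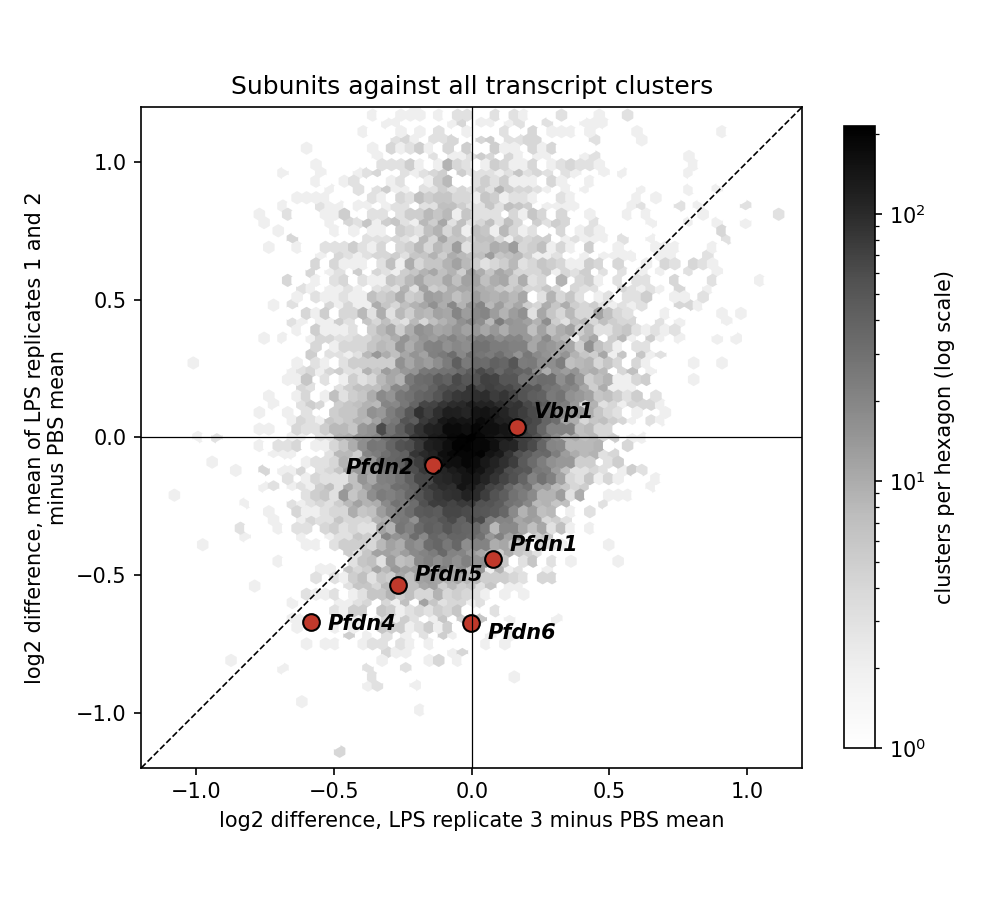
Log2 difference from the PBS mean in LPS replicate 3 (horizontal axis) and in the mean of LPS replicates 1 and 2 (vertical axis) for all transcript clusters, as hexagons shaded by count on a log scale, and for the prefoldin subunits as red points. The dashed line marks equal differences, and 425 clusters beyond 1.2 on either axis are not drawn. Pfdn4 lies near the line at -0.58 and -0.67, and Pfdn1 and Pfdn6 lie low on the vertical axis alone. The complex was chosen by the difference of Pfdn4 over these same arrays, so the place of Pfdn4 is a description.

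Averaged over the other 5 subunits, the difference from the PBS mean was -0.24, -0.45 and -0.03 on the log2 scale in LPS replicates 1, 2 and 3. Pfdn4 lay at -0.55, -0.79 and -0.58 in the same mice. Within each array, Pfdn4 minus the average of the others was -0.32, -0.34 and -0.55 in the LPS mice and 0.01, 0.12 and -0.12 in the PBS mice. These differences follow in part from the choice of the complex by Pfdn4. In LPS replicate 2 all 6 subunits lay below their PBS means, in LPS replicate 1 5 did and in LPS replicate 3 4 did. The same count was 5, 2 and 2 in PBS replicates 1, 2 and 3. The counts in the LPS mice include Pfdn4, by which the complex was chosen, and the matching shares of all clusters are not given. The differences with arrays left out, drawn for each subunit, ranged from -0.69 to -0.57 for Pfdn4, from -0.54 to -0.28 for Pfdn5 and from -0.67 to -0.29 for Pfdn6 when single arrays were left out.

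**Figure D3:**
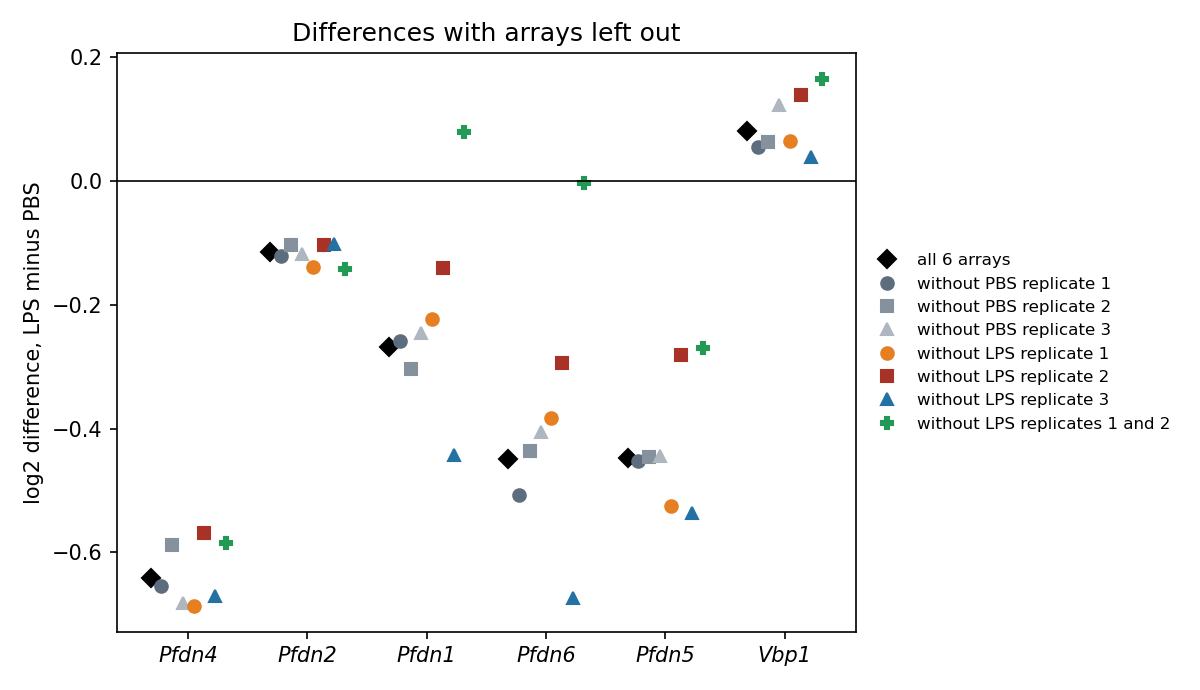
Log2 difference between LPS and PBS for each subunit, with all 6 arrays (black diamond), without each array in turn and without LPS replicates 1 and 2 together. Pfdn4 lies between -0.69 and -0.57, which its choice by the difference over all 6 arrays favours. Pfdn1 and Pfdn6 move to 0.08 and -0.003 without LPS replicates 1 and 2.

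The chaperonin CCT receives the proteins that prefoldin carries. Of its 9 genes, none passed the limma test or the methods' t-test, and none had an unadjusted p under 0.05 from limma. Their log2 differences ran from -0.26 to 0.05 with a median of -0.12, against a median of -0.02 over all named genes, and 8 of 9 were below 0. Cct5, which had the smallest p of the list, had a log2 expression of 10.21, 10.26 and 10.55 in the PBS mice and of 10.13, 9.98 and 10.15 in the LPS mice. All its LPS mice lay below all its PBS mice, as for 10.3% of all clusters, with a log2 difference of -0.25 (adjusted p = 0.369 from limma). Cct2 had a log2 difference of -0.14 (adjusted p = 0.478 from limma). Without LPS replicate 3, where 3.24% of all clusters were called lower, a single CCT gene was called lower, Cct6b, a dim gene that was not above the receptor percentile on every array, with a log2 difference of -0.44 against -0.26 with all arrays. Without LPS replicates 1 and 2 the log2 difference was 0.10 for Cct6b, -0.19 for Cct5 and -0.04 for Cct2.

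The relatives of prefoldin were also measured. Of 7 genes of the prefoldin-like complex around Uri1 and Uxt, which share its fold, and of their R2TP partners, none passed either test, with a median log2 difference of -0.05. Ruvbl2, an ATPase of that complex, had the smallest p, with a log2 difference of -0.18 (adjusted p = 0.419 from limma), which was -0.04 without LPS replicates 1 and 2. Of 4 phosducin-like and thioredoxin-like co-chaperones of CCT, none passed either test. Pdcl had the smallest p, with a log2 difference of -0.18 (adjusted p = 0.569 from limma). In both lists none had an unadjusted p under 0.05 from limma.

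Of 7 genes of tubulin folding cofactors, none passed either test. The only gene with an unadjusted p under 0.05 from limma was Arl2, a small GTPase that acts with the cofactors. It was lower, where 6.58% of all clusters were lower and 7.69% higher at that level. Its log2 expression was 10.54, 10.70 and 10.73 in the PBS mice and 10.44, 10.28 and 10.50 in the LPS mice. All LPS mice lay below all PBS mice, as they did for 10.3% of all clusters. The log2 difference was -0.25 (adjusted p = 0.314 from limma). Tbcc, which encodes the cofactor that triggers GTP hydrolysis by tubulin, had a log2 difference of 0.20 (adjusted p = 0.453 from limma).

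Among the folded products, 13 of 18 tubulin and actin genes were named alone, and none passed either test. At an unadjusted p under 0.05 from limma 3 were lower and 1 was higher, where 6.58% and 7.69% of all clusters were. The list ran from -0.55 to 0.30 with a median log2 difference of -0.18. Tubb2a, a neuronal beta-tubulin, had a log2 expression of 10.86, 10.85 and 10.83 in the PBS mice and of 10.21, 10.10 and 10.57 in the LPS mice. All its LPS mice lay below all its PBS mice, as for 10.3% of all clusters, with a log2 difference of -0.55 (adjusted p = 0.157 from limma). Tuba8 and Tuba4a, which encode alpha-tubulins, had log2 differences of -0.37 and -0.28 (adjusted p = 0.296 and 0.231 from limma). Tubb6, another beta-tubulin, had a log2 difference of 0.30 (adjusted p = 0.272 from limma). Without LPS replicate 3, where 3.24% of all clusters were called lower, 3 of the 13 were, namely Tubb2a, Tuba8 and Tuba4a (adjusted p = 0.00794, 0.0384 and 0.0461 from limma). Without LPS replicates 1 and 2 their log2 differences were -0.28, -0.13 and -0.18, and none of the 13 was called.

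**Figure D4:**
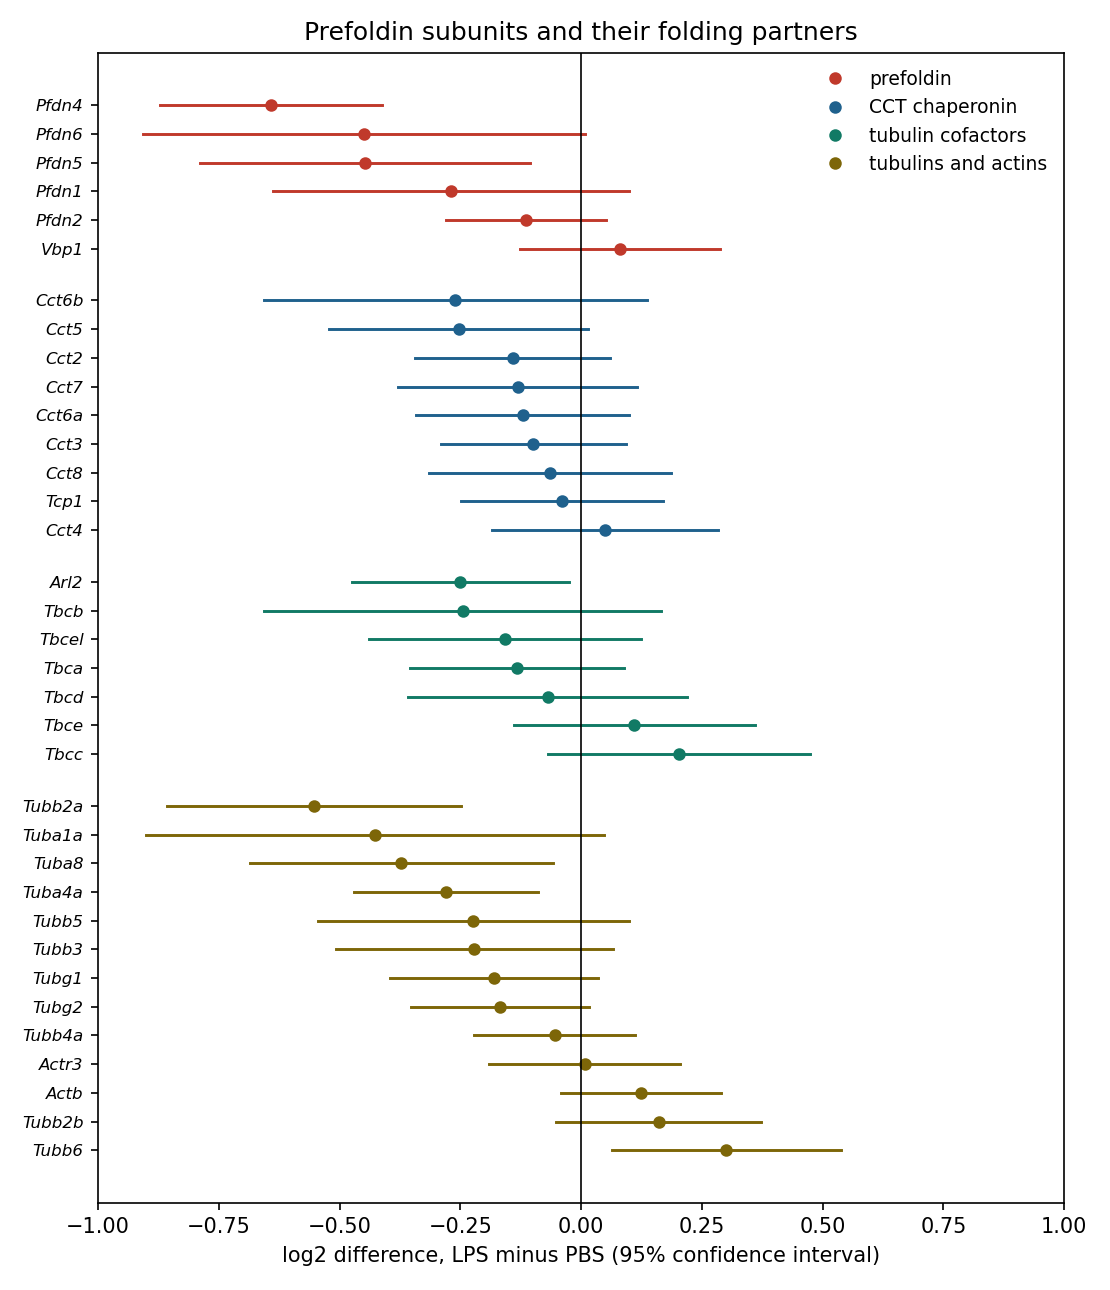
Log2 difference between LPS and PBS with its 95% confidence interval from limma for the prefoldin subunits, the CCT chaperonin, the tubulin folding cofactors and the tubulins and actins named alone, each list ordered by the difference. The interval of Pfdn4 runs from -0.87 to -0.41, and the CCT genes lie between -0.26 and 0.05.

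The nearest measured protein-coding genes around Pfdn4 were Tshz2, Zfp217 and Bcas1 on the side of lower coordinates and Dok5, Cbln4 and Mc3r on the other. They lay from 68517 bases (Bcas1) to 1729422 bases (Mc3r) away, and Cyp24a1, which overlaps Pfdn4, was not among them. The 6 had log2 differences from -0.22 to 0.04, and none was called (lowest adjusted p = 0.565 from limma). The genes whose profile over the 6 arrays was closest to that of Pfdn4, by the Euclidean distance between log2 values after each gene's own mean was subtracted, were Dusp10, Ada, Mrps6, Mrpl57 and Htra1, at distances from 0.13 to 0.18. Dusp10 encodes a phosphatase of stress-activated kinases, Ada encodes adenosine deaminase, Mrps6 and Mrpl57 encode mitochondrial ribosomal proteins and Htra1 encodes a secreted serine protease. Their log2 differences ran from -0.67 to -0.54, as the choice by likeness to Pfdn4 implies. Among 19937 other named genes ranked by this distance, Pfdn5 came 109th, Pfdn6 1466th, Pfdn1 2295th, Pfdn2 3410th and Vbp1 13085th.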

How the data were processed

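RNA from the brains of 3 LPS-treated and 3 vehicle-treated mice was measured, each mouse on its own Affymetrix array. The log2 expression values are those deposited by the authors, who normalized the arrays by RMA. The methods name RMA adjusted for GC content and RMA 16, and which of these gave the values is not stated. Values were used as deposited. Names came from the platform's annotation, older symbols being updated by gene identifier, and the cluster with the highest mean stood for a gene.

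The groups were compared with limma 3.58.1 (lmFit, then eBayes) under R 4.3.3. Tests were two-sided, p-values were adjusted across all 35556 clusters by Benjamini-Hochberg, and 0.05 was the threshold. A t test on the same values is called the methods' t-test. Promoter windows came from RefSeq. The procedure was tested on simulated data. Their noise was independent between arrays and their changes were larger than those of the subunits, so they do not cover differences of this size. No array duplicated another. The number of arrays limits the precision. Each limma p-value weighs a difference against a spread between mice, which eBayes moves toward a value shared by all clusters.

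The members, the gene lists and the alternatives were chosen with earlier results of these data known. Genes with values are all subunits, in each partner list up to 4 genes with the smallest p, called markers, the 5 genes closest to Pfdn4 in profile and its 6 measured neighbours. Outside this rule, Flt1 and Slc2a1 are given as endothelial markers not called, and Aqp1 as a choroid plexus marker that did not follow its list. Cct6b was named after its value was seen. Alternatives were the methods' t-test, eBayes with a trend or robust, quantile normalization, subtraction of each array's median, omission of the dimmest 40% of clusters, the replicate number as a block, an offset of 32 on the linear scale, the mean of a gene's clusters, each array left out in turn, and LPS replicates 1 and 2 left out together.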

Additional observations from a re-analysis of the deposited data

How the results depend on the processing

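The log2 difference of Pfdn4, given with no test, ran from -0.73 to -0.57 over all 16 alternatives. Pfdn2 and Pfdn5 kept their sign and did not pass the test under any of the 16 (lowest adjusted p = 0.301 and 0.0670 from limma). Pfdn1 turned to 0.0784 and Cct6b to 0.10 without LPS replicates 1 and 2, and Vbp1 turned to -0.0104 with each array centred on its median. With single arrays left out, Pfdn1 ranged from -0.44 to -0.14, Pfdn6 from -0.67 to -0.29, the other subunits called lower from 0 to 2, CCT genes called from 0 to 1 and tubulin and actin genes called from 0 to 3, and each of these counts was above 0 only without LPS replicate 3. Clusters called lower then ranged from 0 to 1152 and those called higher from 74 to 2640, against 22 and 232 with all arrays. They were 10 and 141 with median centring, 1 and 4 by the methods' t-test, 4 and 76 with the replicate block, and 12 and 71 without LPS replicates 1 and 2, and 13 were lower after quantile normalization. The causes were not tested. Arrays of the same replicate number did not deviate together (correlations of 0.09, -0.05 and 0.10, with 2 of 3 LPS arrays closest to their own number). This gave no sign that the numbers pair the mice, but with 3 arrays per group it cannot exclude pairing. The replicate block leaves the differences unchanged by construction (Pfdn4 -0.64, given with no test), and with it none of the other 5 subunits passed the test (lowest adjusted p = 0.286 from limma, for Pfdn5). Signal over background per probe is unknown here.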
